A study of Mus musculus with 14 samples.

Results

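The genes described here are 39 genes of glycolysis and of the response to low oxygen, read in sorted epidermal stem cells (EpdSCs) of mouse skin over 12 weeks of SOX9 induction. They are the genes whose symbols stand on a list of these pathways, a rule that uses no measured value, though the list was drawn up with earlier results of these data known. They matched 40 of the 54332 gene rows of the time-course table, since aldolase A (*Aldoa*) has a second entry, and 38 of the 40 had a mean of at least 1 TPM and were among the 13110 genes tested.

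The mice were CD1 and carried K14rtTA, a doxycycline-dependent activator driven by the *Krt14* promoter of the skin epithelium, with TRE-myc-Sox9, a MYC-tagged *Sox9* that this activator switches on. All 10 libraries carry both alleles, D0 included. D0 cells came from P21 mice before doxycycline, and W1, W2 and W6 cells from P28, P35 and P63 mice after 1, 2 and 6 weeks of doxycycline, so the age of the mouse rose with the time of induction. W12 cells came from transgenic P0 skin that was grafted onto female Nude hosts, which are immunocompromised, and induced for 12 weeks after healing. Grafting, the host and 12 weeks of SOX9 can therefore not be told apart. At each timepoint 2 biological replicates were read by RNA-seq, of cells negative for CD31, CD45, CD117, CD140a and CD34 and high for CD49f and Ly6A. Values are TPM, a transcript's share of its library, which are scaled for transcript length, so that levels of different genes can be compared. They sum to 1000000 in each library and carry no depth, so the depth behind a value is unknown.

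Several facts of the libraries bear on what follows. MYC-SOX9 transcripts stood at 89.6 and 45.6 TPM at D0 and between 606 and 3414 in the 8 induced libraries. The basal keratins were abundant throughout, with *Krt14* at 19997 to 37666 TPM. All 10 libraries are labelled male, yet D0 replicate 2 had 4.61 TPM of *Xist*, which females express, and 0.0279 TPM of the Y-linked *Ddx3y*, where the other ungrafted libraries had at most 0.00665 of the first and at least 21.9 of the second. Both W12 libraries had *Xist*, at 5.51 and 3.50 TPM, beside *Ddx3y* at 10.97 and 12.9. Immediate-early and stress genes summed to 34490 and 56230 TPM at D0 against 6342 to 14850 in the other 8 libraries, so a comparison with D0 is also one with libraries high in those genes. Fewer cells of a type and less RNA per cell cannot be told apart in such bulk libraries.

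Glycolysis splits glucose into pyruvate. Transporters bring glucose in, hexokinase and phosphofructokinase commit it, the steps from aldolase to pyruvate kinase harvest ATP, and lactate dehydrogenase and the monocarboxylate transporters turn pyruvate into lactate and carry it across the membrane. In low oxygen the prolyl hydroxylases no longer mark the HIF alpha subunits for destruction, and HIF raises many glycolytic genes together with genes of blood vessel growth, mitophagy, collagen processing and pH control.

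From D0 to W6, 11 of the 38 tested genes rose and 16 fell, beside 18.3% of all genes higher and 14.1% lower. Among those that rose were enzymes of lower glycolysis and lactate handling, with mean TPM 7.69 times the D0 mean for *Ldhb*, 2.27 times for *Eno1* and 1.97 times for *Ldha*. Among those that fell were *Hk1*, the phosphofructokinase subunits and some genes of the HIF response. HIF targets went both ways, since *Ldha* and *Car12* are HIF targets that rose. *Hif1a* fell to 0.506 of its D0 mean and the HIF targets *Adm*, *Bnip3* and *Ndrg1* to 0.0490, 0.168 and 0.177. At W12 *Ldhb*, *Eno1* and *Ldha* were still higher than at D0, *Hif1a*, *Bnip3* and *Ndrg1* stood at 1.19, 1.01 and 1.02 times their D0 means, and *Adm* was still lower, at 0.276 of its D0 mean. Of the 38 genes, 31 varied over the 5 timepoints (limma F test on log2(TPM + 1), Benjamini-Hochberg adjusted p under 0.05), beside 57.5% of all genes tested.

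**Figure D1:**
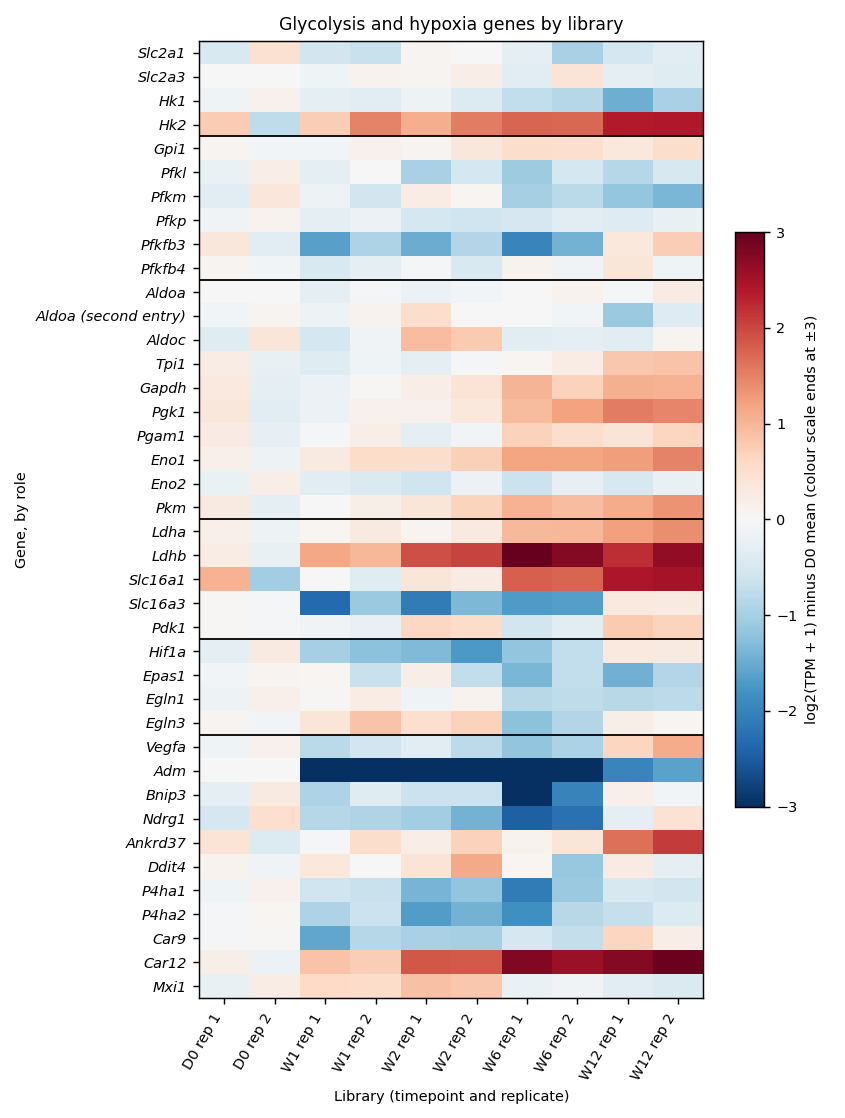
Heat map of the 40 rows in the 10 libraries, with genes ordered by role. Colour gives log2(TPM + 1) minus the D0 mean, with colours ending at 3 in either direction. *Ldhb* and *Car12* redden step by step to W6 (changes of 2.90 and 2.68), while *Bnip3* and *Ndrg1* are blue at W6 (-2.56 and -2.34) and pale again at W12 (0.04 and 0.07).

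Each comparison was fitted with limma on log2(TPM + 1) over all 10 libraries, and a gene was said to rise or fall where its Benjamini-Hochberg adjusted p over all 13110 genes was under 0.05. At W1 against D0, 6 of the 38 genes passed, 2 higher (*Ldhb*, *Car12*) and 4 lower (*Slc16a3*, *Hif1a*, *Adm*, *Car9*), beside 9.89% of all genes, 5.79% higher and 4.10% lower. At W2 against D0, 13 passed, 5 higher (*Eno1*, *Ldhb*, *Pdk1*, *Car12*, *Mxi1*) and 8 lower (*Pfkp*, *Slc16a3*, *Hif1a*, *Adm*, *Ndrg1*, *P4ha1*, *P4ha2*, *Car9*), beside 15.7% of all genes, 9.06% higher and 6.64% lower. These early counts depended on single libraries. The W1 count was 1 and 3 without W1 replicate 1 or 2, and the W2 count was 4 and 5 without W2 replicate 1 or 2 and 6 without D0 replicate 2. Between W1 and W2 no gene of the list passed by limma, beside 0.114% of all genes.

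At W6 against D0, 27 of the 38 genes passed (71.1%), 11 higher and 16 lower, beside 32.4% of all genes, 18.3% higher and 14.1% lower. This count was above the 18 at W12, but not under every alternative. Without D0 replicate 2 it was 15 beside 17 at W12, and the calls of *Hk1*, *Hk2*, *Gpi1*, *Pfkl*, *Pfkm*, *Pfkp*, *Gapdh*, *Pgam1*, *Pdk1*, *Hif1a*, *Vegfa* and *P4ha2* were lost, each with its sign kept. Fitted on the 4 libraries of D0 and W6 alone, 7 genes passed (1094 of all genes), beside 18 in the like fit of W12 (3940 of all genes). With all genes above 0 TPM tested the counts were 15 and 16, without W6 replicate 1 they were 18 and 21, and without W6 replicate 2 they were 20 and 21. The 16 genes that fell had longer transcripts than the 11 that rose, with medians of 3886.5 and 2432 bases beside 3043 over all genes tested, and across genes the change had a Spearman correlation with that length of -0.245. With length and GC content regressed out, 23 genes of the list passed, beside 4524 of all genes. From W2 to W6, 12 passed, 5 higher (*Pgk1*, *Pgam1*, *Ldha*, *Ldhb*, *Car12*) and 7 lower (*Pfkm*, *Aldoc*, *Pdk1*, *Egln1*, *Egln3*, *Bnip3*, *Mxi1*), beside 16.3% of all genes, 7.99% higher and 8.31% lower. Without W2 replicate 1 or 2 that count was 1 and 2.

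At W12 against D0, 18 of the 38 genes passed (47.4%), 13 higher and 5 lower, beside 43.0% of all genes, 17.9% higher and 25.1% lower. The share of calls, higher and lower together, was near that of all genes. Transcript length had a Spearman correlation with this change of -0.316 across genes. The 13 genes that rose had a median of 2432 bases and the 5 that fell one of 3594. With length and GC content regressed out, 18 genes of the list passed, 14 higher and 4 lower, beside 5186 of all genes. From W6 to W12, 13 genes were higher (34.2%) and 0 lower, beside 20.2% of all genes, 6.66% higher and 13.5% lower. The median change of the 38 genes in that step was 0.28 on the log2 scale against -0.16 over all genes. After median-ratio scaling, which brought the median of all genes to -0.01, it was 0.46. Without W12 replicate 1 or 2 the count was 6 and 7.

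Markers of other cell types also differed between timepoints. At W12 the 6 endothelial markers summed to 59.7 and 128 TPM against at most 2.45 elsewhere, with *Pecam1*, the gene of the CD31 that the sort gated out, at 26.1 and 59.8 TPM. The 6 erythroid genes summed to 432.5 and 463 TPM against at most 30.6, nearly all of it globin. The 6 leukocyte markers summed to 102.5 and 125.5 TPM against at most 27.0, of which *Cd74*, a gene of antigen presentation, made up 102 and 124, while the pan-leukocyte *Ptprc* lay at 0.0184 and 0.327. The 6 adipocyte markers summed to 165.6 and 255.9 TPM against at most 3.53, almost all of it *Fabp4*, which capillary endothelium also makes, and the defining *Adipoq* and *Cfd* were at 0 in all 10 libraries. The part of these transcripts in the W12 results was not tested. At W6, 7 of 8 basal epidermal markers were lower than at D0 and 3 of 6 suprabasal markers higher, beside 14.1% of all genes lower and 18.3% higher. At W12, 5 of the basal markers were lower and 1 higher, and 3 of the suprabasal markers higher and 1 lower, beside 25.1% of all genes lower and 17.9% higher. The suprabasal sum was 5784 and 1909 TPM at D0, 11900 and 12500 at W6 and 13560 and 11940 at W12. The part of these markers in the W6 and W12 results was not tested. The fibroblast sum was 52.2 TPM in W6 replicate 2, 51.2 of it *Dcn*, named after its value was seen. It was 13.7 and 28.1 at W12 and at most 4.06 elsewhere. Melanocyte sums lay between 1.29 and 13.1 TPM and skeletal muscle sums between 4.38 and 26.0. Of 3 tested melanocyte markers, 2 were higher at W12 than at D0 (*Dct*, *Tyrp1*) and 0 lower, beside 17.9% and 25.1% of all genes.

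**Figure D2:**
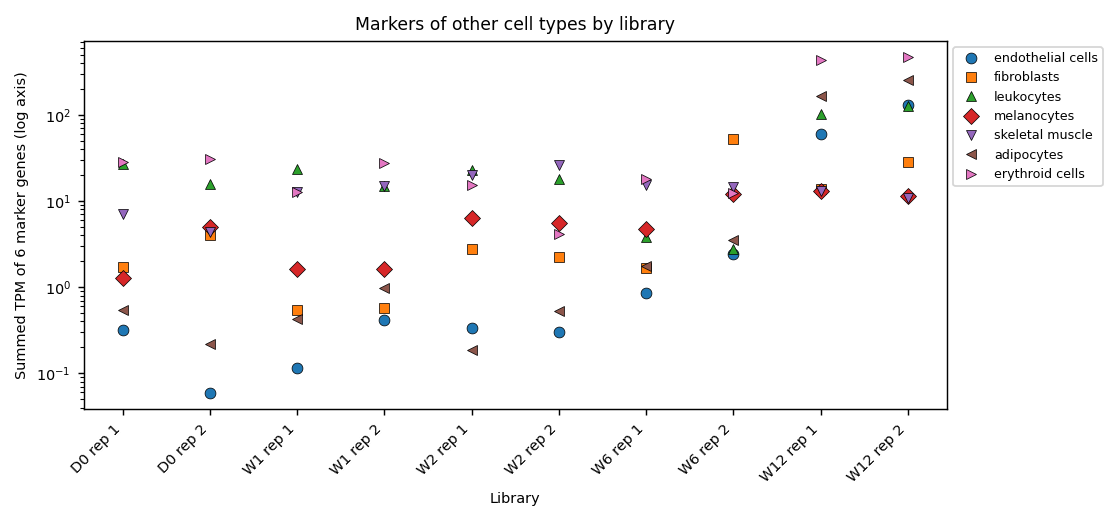
Summed TPM of 6 marker genes for each of 7 other cell types (symbols) in each library, on a log axis. Endothelial, adipocyte, leukocyte and erythroid sums are highest in the 2 W12 libraries, at 59.7 to 463 TPM, and the fibroblast sum is highest in W6 replicate 2, at 52.2.

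At the entry of glucose, *Hk1* was lower and *Hk2* higher at W6 and W12 than at D0, and no transporter passed. *Slc2a1*, the main glucose transporter of keratinocytes, had 258 and 482 TPM at D0, 239.7 and 221 at W1, 372 and 354 at W2, 291 and 181 at W6 and 245 and 282 at W12. The D0 replicates of *Slc2a1* lay far apart and it passed no test. *Slc2a3*, a high-affinity transporter, had at most 1.00 TPM in any library and was not tested.

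*Hk1*, the widely expressed hexokinase, had 78.5 and 93.3 TPM at D0, 69.2 and 68.7 at W1, 76.7 and 64.4 at W2, 50.5 and 46.5 at W6 and 30.3 and 43.3 at W12. *Hk2*, the inducible one, had 5.07 and 1.12 TPM at D0, 4.94 and 8.99 at W1, 6.63 and 9.40 at W2, 10.9 and 10.8 at W6 and 17.6 and 18.0 at W12. At W6 and W12 every *Hk1* value lay below both D0 values and every *Hk2* value above both. *Hk1* fell by 0.81 at W6 and 1.22 at W12 on the log2 scale (SE 0.19, limma adjusted p = 0.0131 and 0.00144). With length and GC content regressed out these falls were 0.52 and 0.55, both past the threshold, and the W6 call was lost without D0 replicate 2 (-0.68, adjusted p = 0.0723) or without W6 replicate 2 (-0.75, adjusted p = 0.0536). *Hk2* rose by 1.73 and 2.39 (SE 0.45, limma adjusted p = 0.0193 and 0.00343), and the W6 call was lost without D0 replicate 2 or W6 replicate 1 or 2 (changes of 0.97 to 1.74, adjusted p = 0.0626 to 0.0825). Since its D0 replicates differed, leaving out replicate 2 or replicate 1 of D0 gave W12 rises of 1.63 and 3.15, both past the threshold. *Hk1* remained the more abundant of the pair, and the *Hk2* share of their summed TPM was 6.06% and 1.19% at D0, 17.8% and 18.9% at W6 and 36.8% and 29.3% at W12.

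The phosphofructokinase subunits were lower at W6 than at D0. *Pfkp*, the platelet-type subunit and the main one here, had 300.5 and 347 TPM at D0, 264 and 288 at W1, 225 and 212 at W2, 229 and 255 at W6 and 247 and 276 at W12. *Pfkl*, the liver-type subunit, had 87.1 and 115 TPM at D0, 83.4 and 100.3 at W1, 50.5 and 68.9 at W2, 47.0 and 69.5 at W6 and 55.3 and 71.7 at W12. *Pfkm*, the muscle-type subunit, had 7.70 and 12.9 TPM at D0, 8.91 and 6.48 at W1, 11.8 and 10.4 at W2, 4.51 and 5.29 at W6 and 3.95 and 3.23 at W12. *Pfkp* made up 72.8% to 81.6% of the summed TPM of the 3 subunits in every library. At W6 *Pfkp*, *Pfkl* and *Pfkm* fell by 0.42, 0.80 and 0.90 on the log2 scale (SE 0.14, 0.25 and 0.26, limma adjusted p = 0.0473, 0.0399 and 0.0293). These calls were weak. Without D0 replicate 2 the changes were -0.31, -0.60 and -0.56, none past the threshold, and with length and GC content regressed out those of *Pfkp* and *Pfkl* were -0.18 and -0.55, also not past it. The fall of *Pfkm* at W12 (1.26, limma adjusted p = 0.00527) passed under each alternative tried. *Gpi1*, which feeds this step with fructose 6-phosphate, had 157 to 213 TPM through W2 and 208 to 244 at W6 and W12. It rose at W6 (0.52, SE 0.15, limma adjusted p = 0.0318), a call lost without D0 replicate 2 or W6 replicate 1 or 2 (changes of 0.43 to 0.53, adjusted p = 0.0774 to 0.127).

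*Pfkfb3*, which makes the fructose 2,6-bisphosphate that activates phosphofructokinase and is itself a HIF target, had 6.62 and 3.71 TPM at D0, 0.932 and 2.16 at W1, 1.15 and 2.26 at W2, 0.524 and 1.25 at W6 and 6.42 and 8.94 at W12. No library from W1 to W6 reached the lower D0 value, and of the W12 libraries 1 lay within the D0 range and 1 above it. *Pfkfb3* fell by 1.70 at W6 against D0 and rose by 2.21 from W6 to W12 (SE 0.37, limma adjusted p = 0.0101 and 0.00570). Its relative *Pfkfb4* stayed at 1.01 to 2.56 TPM and passed none of these comparisons.

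Of the 9 tested rows from aldolase to pyruvate kinase, 5 rose at W6 against D0 (*Gapdh*, *Pgk1*, *Pgam1*, *Eno1*, *Pkm*), 5 rose at W12 (*Tpi1*, *Gapdh*, *Pgk1*, *Eno1*, *Pkm*) and none fell at either, beside 18.3% of all genes higher at W6 and 17.9% at W12. The W6 count was 3 without D0 replicate 2 or W6 replicate 1. Their median changes were 0.60 and 0.83 on the log2 scale against 0.08 and -0.08 over all genes. *Eno1*, enolase 1, had 349 and 279.8 TPM at D0, 379 and 456 at W1, 450.4 and 514 at W2, 717 and 714 at W6 and 751 and 878 at W12. *Pgk1*, phosphoglycerate kinase, had 189.7 and 119 TPM at D0, 133 and 165 at W1, 164 and 188 at W2, 290.2 and 348 at W6 and 439 and 421 at W12. In both genes W6 and W12 lay above every earlier library. *Eno1* rose by 1.19 at W6 and 1.37 at W12 (SE 0.17, limma adjusted p = 0.00138 and 0.000431) and *Pgk1* by 1.07 and 1.51 (SE 0.22, limma adjusted p = 0.00789 and 0.00111).

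*Pkm*, which forms pyruvate, had 812 and 567 TPM at D0, 676 and 763 at W1, 876 and 1075 at W2, 1408 and 1298 at W6 and 1459.7 and 1731 at W12. *Gapdh*, which makes the first high-energy phosphate of the pathway, had 883 and 579.8 TPM at D0, 632 and 736 at W1, 826 and 948 at W2, 1463 and 1165 at W6 and 1498 and 1479 at W12. In both genes D0 replicate 1 was well above D0 replicate 2, and every W6 and W12 library lay above both. *Pkm* rose by 0.99 at W6 and 1.23 at W12 (SE 0.20, limma adjusted p = 0.00740 and 0.00189). *Gapdh*, often taken as a constant reference, rose by 0.87 and 1.06 (SE 0.22, limma adjusted p = 0.0166 and 0.00516), and its W6 call was lost without D0 replicate 2 (0.56, adjusted p = 0.0688) or without W6 replicate 1 (0.70, adjusted p = 0.0789).

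*Tpi1*, triose phosphate isomerase, had 361 to 543 TPM in the 8 ungrafted libraries and 812 and 844 at W12. It rose by 0.83 at W12 against D0 and by 0.70 from W6 (SE 0.18, limma adjusted p = 0.00691 and 0.0298), the latter call being lost without W6 replicate 1 or W12 replicate 1 or 2 (changes of 0.61 to 0.72, adjusted p = 0.118 to 0.127). *Pgam1*, phosphoglycerate mutase, had 217 to 315 TPM through W2 and 345 to 429 at W6 and W12. It rose at W6 (0.60, SE 0.20, limma adjusted p = 0.0461), but its call was lost without any of 9 libraries, all but D0 replicate 1. *Aldoa*, the main aldolase, stayed at 745 to 1070.1 TPM and passed no comparison, and its second entry, next to it on the same strand of chromosome 7, had at most 3.47 TPM. *Aldoc*, the brain-type aldolase, had 9.06 and 15.8 TPM at D0, 8.08 and 11.1 at W1, 23.7 and 21.3 at W2, 9.52 and 9.79 at W6 and 9.34 and 12.8 at W12, and was highest at W2. It fell from W2 to W6 (-1.14, SE 0.27, limma adjusted p = 0.0282), a call lost without W2 replicate 1 or 2 or W6 replicate 1 or 2 (changes of -1.21 to -1.07, adjusted p = 0.0588 to 0.164). *Eno2*, the neuronal enolase, had at most 1.29 TPM.

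Some of these genes have near-identical copies elsewhere in the genome, between which the quantification could split reads. The copies held 63.3% of the summed TPM of *Eno1* and its 4 copies, 54.5% for *Gapdh* and its 19 and 35.5% for *Pgam1* and its 2. With the copies added to each gene, *Pgam1* no longer passed at W6 (0.54, limma adjusted p = 0.0692), while *Eno1* and *Gapdh* still passed at W6 and W12.

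**Figure D3:**
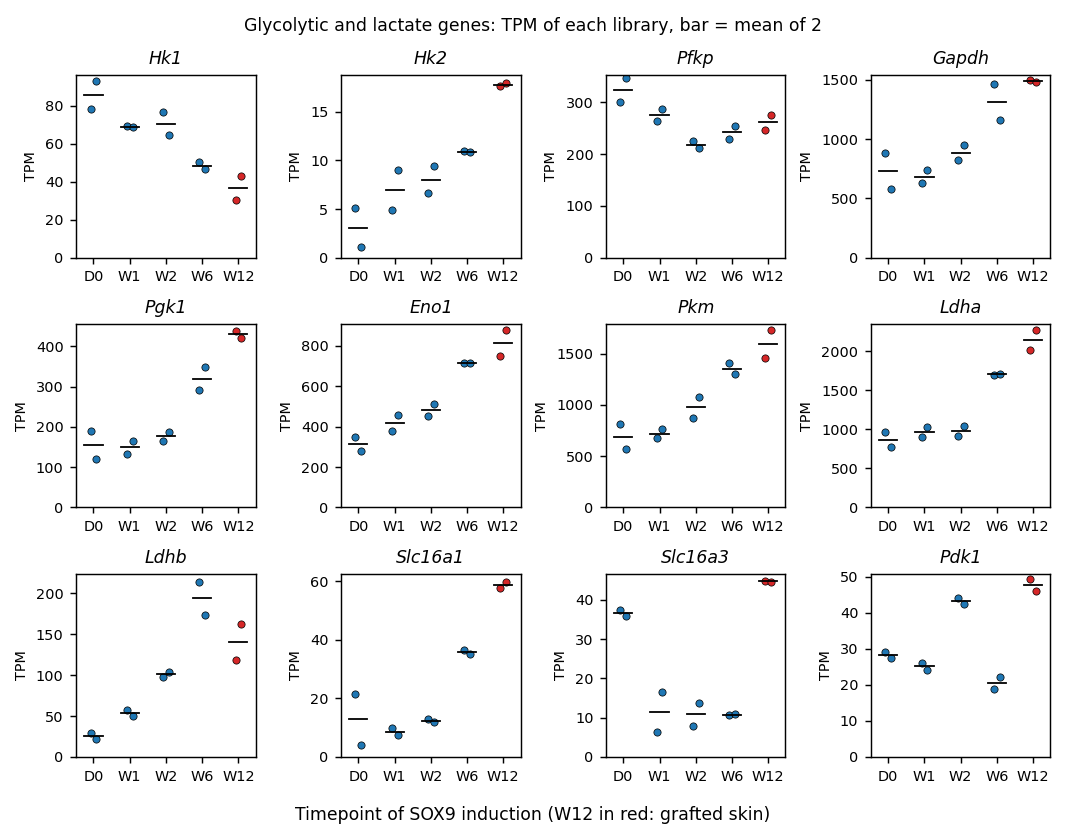
TPM of each library (points, W12 in red) at the 5 timepoints for 12 genes of glycolysis and lactate handling, with a bar at the mean of 2. *Ldha* climbs from 964 and 769 at D0 to 2017 and 2274 at W12, *Hk1* declines from 78.5 and 93.3 to 30.3 and 43.3, and *Slc16a3* drops at W1 and is back at 44.8 and 44.7 at W12.

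Lactate handling held the largest rise of the list at W6. *Ldhb*, the heart-type lactate dehydrogenase subunit, had 29.0 and 21.4 TPM at D0, 56.9 and 50.5 at W1, 98.0 and 104 at W2, 214 and 174 at W6 and 119 and 162 at W12. The timepoints of *Ldhb* did not overlap from D0 through W6, and W12 lay below W6 and above W2. It rose by 1.07 at W1 and 1.97 at W2, then by 2.90 at W6 and 2.43 at W12 against D0 (SE 0.21, limma adjusted p = 0.0133, 0.000629, 7.04e-05 and 6.65e-05), with the W1 call lost without D0 replicate 2 or W1 replicate 1 or 2 (changes of 0.86 to 1.16, adjusted p = 0.0553 to 0.0910). *Ldha*, the muscle-type subunit and a classic HIF and MYC target, had 964 and 769 TPM at D0, 896 and 1030.4 at W1, 918 and 1038 at W2, 1699.9 and 1708 at W6 and 2017 and 2274 at W12. *Ldha* did not pass at W1 or W2 and lay above every earlier library at W6. It rose by 0.98 at W6 and 1.31 at W12 (SE 0.16, limma adjusted p = 0.00310 and 0.000493). *Ldha* remained the main subunit, and the *Ldhb* share of the pair was 2.92% and 2.71% at D0, 11.2% and 9.23% at W6 and 5.56% and 6.66% at W12.

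The monocarboxylate transporters took separate courses. *Slc16a1* (MCT1), which carries lactate in either direction, had 21.4 and 4.24 TPM at D0, 9.97 and 7.42 at W1, 12.9 and 11.9 at W2, 36.5 and 35.2 at W6 and 57.6 and 59.8 at W12. *Slc16a3* (MCT4), a HIF target that mostly exports lactate, had 37.5 and 35.8 TPM at D0, 6.47 and 16.5 at W1, 7.79 and 13.9 at W2, 10.6 and 10.9 at W6 and 44.8 and 44.7 at W12. *Slc16a1* was higher at W6 and W12 than in any earlier library, and *Slc16a3* was lower in all 6 libraries from W1 to W6 than at D0 or W12. *Slc16a1* rose by 1.77 at W6 and 2.46 at W12 (SE 0.53, limma adjusted p = 0.0335 and 0.00641). Its D0 replicates differed, and leaving out replicate 2 or replicate 1 of D0 gave W6 rises of 0.72 and 2.81, both past the threshold, while the call was lost without W1 replicate 1 or 2, W2 replicate 1 or 2, W6 replicate 1 or 2 or W12 replicate 1 or 2 (changes of 1.74 to 1.79, adjusted p = 0.0509 to 0.0986). The W12 rise was 1.42 and 3.51 in the same order. *Slc16a3* fell by 1.72 at W1, 1.72 at W2 and 1.68 at W6 (SE 0.37, limma adjusted p = 0.0219, 0.0166 and 0.0104). It rose by 1.96 from W6 to W12 (limma adjusted p = 0.00939), a call lost without W12 replicate 1 (1.96, adjusted p = 0.0703) or without W12 replicate 2 (1.96, adjusted p = 0.0525). Its W1 call was lost without D0 replicate 1 or 2, W1 replicate 1 or W12 replicate 1 or 2 (changes of -1.75 to -1.11, adjusted p = 0.0502 to 0.0908) and its W2 call without D0 replicate 2 (-1.75, adjusted p = 0.0614) or without W2 replicate 1 (-1.34, adjusted p = 0.119).

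*Pdk1*, which shuts pyruvate out of the mitochondrial pathway and is a HIF target, changed direction more than once. It had 29.2 and 27.5 TPM at D0, 26.1 and 24.3 at W1, 44.2 and 42.3 at W2, 18.9 and 22.1 at W6 and 49.3 and 45.9 at W12. No timepoint of *Pdk1* overlapped another. Against D0 it was higher at W2 (0.59), lower at W6 (-0.45) and higher at W12 (0.73) (SE 0.14, limma adjusted p = 0.0247, 0.0394 and 0.00400). From W6 to W12 it rose by 1.18 (limma adjusted p = 0.00116). The W2 call was lost without D0 replicate 2 or W2 replicate 1 or 2 (changes of 0.55 to 0.62, adjusted p = 0.0721 to 0.159), and the W6 call without any of 9 libraries, all but W6 replicate 2, and with length and GC content regressed out (-0.29, limma adjusted p = 0.121).

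Of the HIF alpha subunits and prolyl hydroxylases, 3 of 4 fell at W6 against D0 and none rose, beside 14.1% of all genes lower and 18.3% higher. *Hif1a*, the HIF-1 alpha subunit, had 95.6 and 139 TPM at D0, 56.9 and 48.3 at W1, 45.2 and 34.2 at W2, 50.3 and 68.2 at W6 and 141 and 139 at W12. *Epas1*, the HIF-2 alpha subunit, had 6.34 and 7.17 TPM at D0, 7.07 and 3.86 at W1, 7.85 and 3.65 at W2, 1.98 and 3.61 at W6 and 1.86 and 3.20 at W12. *Hif1a* was the more abundant subunit in every library, lay below both D0 values from W1 to W6 and was back at the upper D0 value at W12. *Hif1a* fell by 1.12 at W1, 1.52 at W2 and 0.96 at W6 against D0 (SE 0.23, limma adjusted p = 0.0175, 0.00331 and 0.0137), and the W2 fall passed under each alternative tried. The W1 call was lost without D0 replicate 2 or W1 replicate 1 or 2 (changes of -1.24 to -0.85, adjusted p = 0.0618 to 0.143) and the W6 call without D0 replicate 2 (-0.70, adjusted p = 0.0809) or without W6 replicate 1 (-0.75, adjusted p = 0.0656). *Hif1a* rose by 1.24 from W6 to W12 (limma adjusted p = 0.00833), a call lost without W12 replicate 1 (1.23, adjusted p = 0.0637). *Epas1* was lower at W12 than at D0 (-1.16, SE 0.39, limma adjusted p = 0.0401), but the call was lost without D0 replicate 1 or 2 or W12 replicate 1 or 2 (changes of -1.44 to -0.88, adjusted p = 0.0644 to 0.216) and with length and GC content regressed out (-0.56). HIF-1 alpha is set mainly by the stability of the protein, which these RNA values do not read.

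*Egln1* and *Egln3* encode prolyl hydroxylases, the latter itself strongly induced by HIF. *Egln1* had 64.2 to 84.2 TPM in the 6 libraries through W2 and 40.0 to 42.0 in the 4 of W6 and W12. It was lower than at D0 by 0.79 at W6 and 0.81 at W12 (SE 0.16, limma adjusted p = 0.00654 and 0.00389), but at W12 its change was -0.29 with length and GC content regressed out (limma adjusted p = 0.155). *Egln3* had 27.3 and 24.6 TPM at D0, 33.8 and 48.0 at W1, 37.0 and 42.3 at W2, 10.4 and 13.7 at W6 and 29.7 and 27.2 at W12. Both W6 libraries of *Egln3* lay below all others. The gene fell by 1.65 from W2 to W6 and rose by 1.18 from W6 to W12 (SE 0.20, limma adjusted p = 0.00311 and 0.00648), the second call being lost without W12 replicate 1 (1.12, adjusted p = 0.0584).

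Of the other 11 HIF targets, 6 fell and 1 rose at W6 against D0, beside 14.1% of all genes lower and 18.3% higher. From W6 to W12, 7 were higher and 0 lower, beside 6.66% and 13.5% of all genes, and the 7 became 4 without W6 replicate 1 or W12 replicate 1 and 3 without W12 replicate 2. *Adm*, which encodes the vasodilator peptide adrenomedullin, had 47.3 and 46.3 TPM at D0, 2.96 and 0.862 at W1, 3.50 and 2.01 at W2, 1.75 and 2.84 at W6 and 11.1 and 14.8 at W12. It lost most of its transcript within the first week and regained part of it at W12. *Adm* fell by 4.14 at W1 and 3.88 at W6 (SE 0.37, limma adjusted p = 0.000431 and 0.000235), the largest fall of the list in either comparison, and was still lower at W12 than at D0 by 1.79 (limma adjusted p = 0.00525). The fall at W1 lay between -4.77 and -3.59 over the alternatives tried. *Adm* rose by 2.09 from W6 to W12 (limma adjusted p = 0.00700), a call lost without W12 replicate 2 (1.89, adjusted p = 0.0517).

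*Bnip3*, a mitophagy receptor, had 62.4 and 92.3 TPM at D0, 39.3 and 58.8 at W1, 47.9 and 48.3 at W2, 7.97 and 18.1 at W6 and 84.0 and 72.3 at W12. *Ndrg1*, a stress- and differentiation-induced gene, had 58.0 and 118 TPM at D0, 45.1 and 44.0 at W1, 39.9 and 30.6 at W2, 14.4 and 16.8 at W6 and 67.6 and 112 at W12. Both had their lowest values in the 2 W6 libraries, and their W12 values lay inside the D0 range. *Bnip3* fell by 2.56 at W6 against D0 and rose by 2.59 from W6 to W12 (SE 0.35, limma adjusted p = 0.00123 and 0.00212). *Ndrg1* fell by 2.34 and rose by 2.41 (SE 0.34, limma adjusted p = 0.00156 and 0.00254). These 4 calls passed under each alternative tried.

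*Vegfa*, the main angiogenic factor of the epidermis, had 30.7 and 37.3 TPM at D0, 18.8 and 22.5 at W1, 27.0 and 19.3 at W2, 14.2 and 17.2 at W6 and 53.4 and 73.8 at W12. Its W12 libraries exceeded all others and its W6 libraries were the lowest. *Vegfa* was lower than at D0 at W6 (-1.07) and higher at W12 (0.87) (SE 0.23, limma adjusted p = 0.00914 and 0.0149), and rose by 1.94 between them (limma adjusted p = 0.00107). The W6 call was lost without D0 replicate 2 (-0.93, adjusted p = 0.0560) and the W12 call without D0 replicate 1 (0.74, adjusted p = 0.0600) or without W12 replicate 2 (0.64, adjusted p = 0.111). *Ankrd37*, an ankyrin-repeat gene, had 10.7 and 5.64 TPM at D0, 7.48 and 11.7 at W1, 9.17 and 13.2 at W2, 8.55 and 10.4 at W6 and 26.6 and 36.4 at W12. The W12 values of *Ankrd37* were above all others, by 1.87 against D0 and 1.62 against W6 (SE 0.33, limma adjusted p = 0.00257 and 0.0120). The first was 1.22 with length and GC content regressed out, and the second was lost without W6 replicate 1 or W12 replicate 1 or 2 (changes of 1.40 to 1.84, adjusted p = 0.0502 to 0.0788).

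*P4ha1* and *P4ha2* encode catalytic subunits of the collagen prolyl hydroxylase. *P4ha1* had 42.4 and 50.6 TPM at D0, 30.5 and 28.7 at W1, 16.9 and 19.8 at W2, 10.1 and 21.1 at W6 and 32.8 and 31.2 at W12. *P4ha2* had 17.0 and 18.4 TPM at D0, 8.88 and 10.95 at W1, 4.87 and 6.04 at W2, 4.20 and 9.49 at W6 and 10.6 and 13.1 at W12. In both genes all 8 induced libraries lay below both D0 libraries. At W6 against D0 they fell by 1.59 and 1.34 (SE 0.28 and 0.31, limma adjusted p = 0.00394 and 0.0122). The fall of *P4ha2* was 0.84 without W6 replicate 1 and not past the threshold without D0 replicate 2 (-1.29, adjusted p = 0.0633). *P4ha1* rose by 1.07 from W6 to W12 (limma adjusted p = 0.0299), a call lost without W1 replicate 1 or 2, W2 replicate 1 or 2, W6 replicate 1 or W12 replicate 1 or 2 (changes of 0.58 to 1.11, adjusted p = 0.0513 to 0.153).

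The carbonic anhydrases, which buffer acid at the cell surface, went opposite ways early on. *Car12* had 24.6 and 19.4 TPM at D0, 40.6 and 37.2 at W1, 81.7 and 80.8 at W2, 155 and 136 at W6 and 153 and 175 at W12. *Car9*, a sensitive HIF-1 target, had 3.11 and 3.38 TPM at D0, 0.437 and 1.36 at W1, 1.16 and 1.14 at W2, 2.00 and 1.60 at W6 and 5.61 and 3.88 at W12. *Car12* stepped up with no overlap from D0 through W6, and *Car9* lay below both D0 values from W1 to W6. *Car12* rose by 0.80 at W1 and 1.85 at W2, then by 2.68 at W6 and 2.85 at W12 (SE 0.16, limma adjusted p = 0.0142, 0.000252, 4.58e-05 and 8.98e-06), with the W1 call lost without W1 replicate 1 (0.74, adjusted p = 0.0982) or without W1 replicate 2 (0.87, adjusted p = 0.0799). *Car9* fell by 1.20 at W1 and 0.98 at W2 and rose by 1.03 from W6 to W12 (SE 0.28, limma adjusted p = 0.0296, 0.0470 and 0.0345). The last call of *Car9* was lost without W2 replicate 1 or 2, W6 replicate 1 or 2 or W12 replicate 1 or 2 (changes of 0.81 to 1.24, adjusted p = 0.0580 to 0.201), the first without D0 replicate 1 or 2, W1 replicate 1 or W2 replicate 1 or 2 (changes of -1.25 to -0.85, adjusted p = 0.0584 to 0.167), and the W2 call without D0 replicate 1 or 2, W2 replicate 1 or 2 or W12 replicate 1 or 2 (changes of -1.03 to -0.94, adjusted p = 0.0589 to 0.209).

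*Mxi1*, a MYC antagonist, had 31.8 and 44.3 TPM at D0, 57.4 and 55.1 at W1, 69.5 and 66.5 at W2, 32.6 and 34.8 at W6 and 29.6 and 27.7 at W12, and its highest mean was at W2. It rose by 0.84 at W2 against D0 and fell by 0.99 from W2 to W6 (SE 0.17, limma adjusted p = 0.0123 and 0.00925), both calls being lost without W2 replicate 1 or 2. *Ddit4*, which restrains mTORC1, had 8.27 to 43.3 TPM and passed none of these comparisons.

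**Figure D4:**
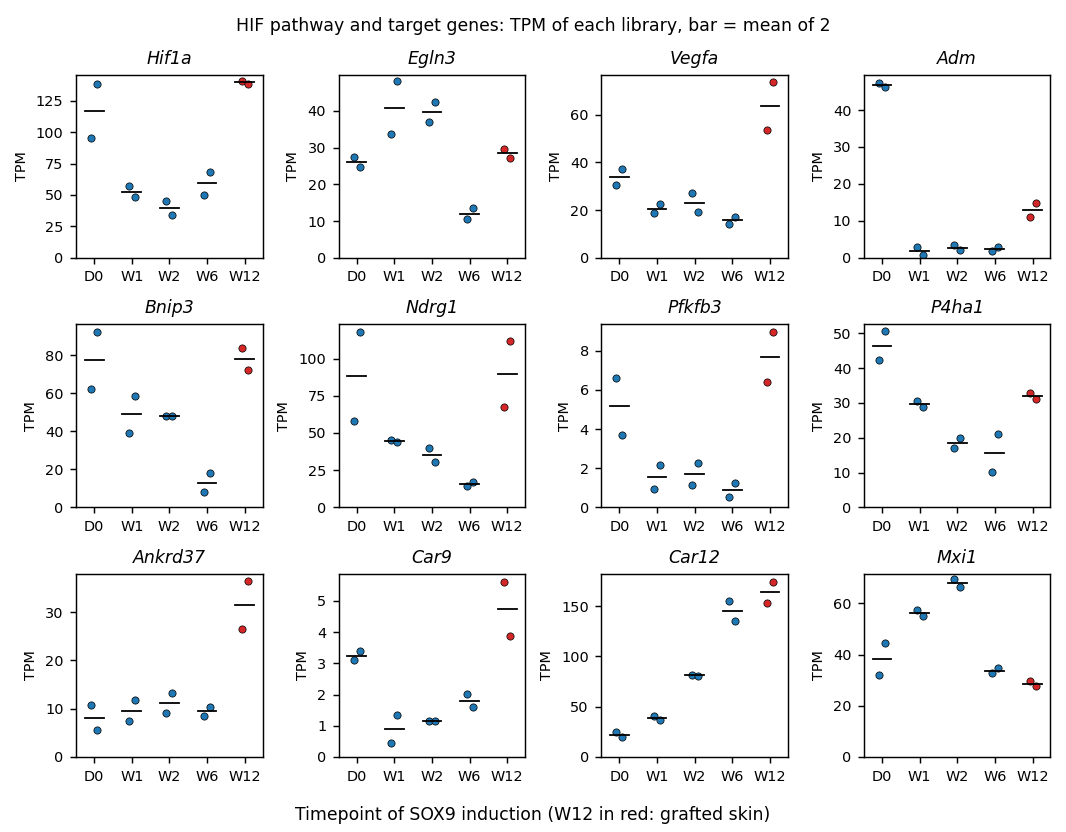
TPM of each library (points, W12 in red) at the 5 timepoints for 12 HIF pathway and target genes, with a bar at the mean of 2. *Adm* drops from 47.3 and 46.3 at D0 to 2.96 and 0.862 at W1, *Bnip3* is lowest at W6 (7.97 and 18.1) and at 84.0 and 72.3 at W12, and *Car12* goes from 24.6 and 19.4 at D0 to 153 and 175 at W12.

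Taken over both steps, the genes followed a few courses. None of the 11 genes that rose at W6 against D0 passed between W6 and W12, and 9 of them (81.8%) were still higher than D0 at W12. Of all 2403 genes that rose at W6, 74.0% did not pass between W6 and W12 and 61.2% were still higher than D0 at W12. Of the 16 that fell at W6, 10 were higher at W12 than at W6 (*Pfkfb3*, *Slc16a3*, *Pdk1*, *Hif1a*, *Egln3*, *Vegfa*, *Adm*, *Bnip3*, *Ndrg1*, *P4ha1*) and 6 did not pass there (*Hk1*, *Pfkl*, *Pfkm*, *Pfkp*, *Egln1*, *P4ha2*). Without W12 replicate 1 both calls were made in 5 genes (*Pfkfb3*, *Vegfa*, *Adm*, *Bnip3*, *Ndrg1*), and without W12 replicate 2 in 6 (*Pfkfb3*, *Hif1a*, *Egln3*, *Vegfa*, *Bnip3*, *Ndrg1*). Genes that fell at W6 and were higher at W12 than at W6 made up 26.3% of the 38 and 1.98% of all genes tested. They were 62.5% of the 16 that fell, and 14.1% of the 1848 genes that did. Without W12 replicate 1 these shares were 38.5% and 7.22%, and without W12 replicate 2 they were 46.2% and 7.48%. The 2 shares were higher without D0 replicate 2 or without W6 replicate 2, and lower without W6 replicate 1. Both comparisons share the W6 libraries, so that a low value there enters each.

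**Figure D5:**
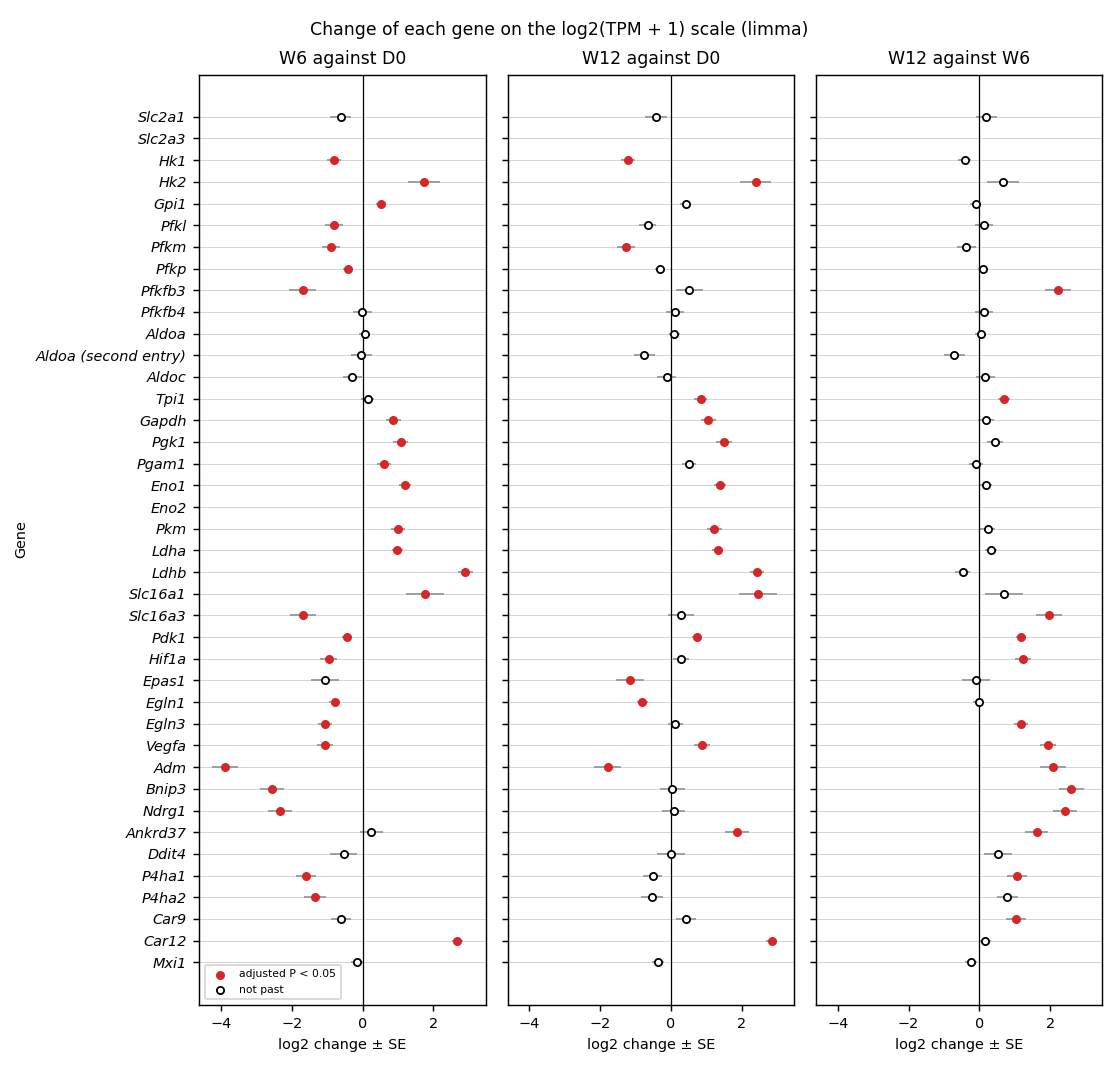
Change of each of the 38 tested genes on the log2(TPM + 1) scale with its SE, for W6 against D0, W12 against D0 and W12 against W6, where filled red points have a limma adjusted p under 0.05. In the W12 against W6 panel all 13 filled points lie right of 0, from 0.70 for *Tpi1* to 2.59 for *Bnip3*.

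The promoters of these genes were read for the letters that HIF recognizes in its targets, a core of ACGTG or, less often, GCGTG. RefSeq promoter windows on GRCm38.p6, 250 bases before and 50 after a transcription start, were used for 36 of the 39 symbols, in 52 windows, with none used for *Epas1*, *Ndrg1* and *Slc2a3*. ACGTG on either strand was found in 29 of the 52 windows (55.8%) and in 19.6% of all 32851, and either core in 78.8% and 43.8%. The windows of the list also held more CG dinucleotides, a median of 20 against 7, and CG is part of the core. ACGTG was found for 7 of the 9 genes with a window that fell at W6 and were higher at W12 than at W6, and for 7 of the 11 that rose at W6, so it was found in both courses. A gene was counted where any of its windows held ACGTG, and *Vegfa*, *Ldha* and *Pkm* each had another window without it. The *Vegfa* window that held it had 218 of the 250 bases before its start in annotated exons. These letters are a description and do not show binding. The 250 bases before the start are given for *Bnip3*, *P4ha1* and *Slc16a3* of the first course and *Ldha* and *Pgk1* of the second, which hold ACGTG, and for *Adm* and *Ldhb*, the genes of either course that changed most at W6, which hold GCGTG but no ACGTG. *Pdk1* of the first and *Eno1*, *Gpi1* and *Car12* of the second had no ACGTG in any window either, though GCGTG was in windows of *Pdk1* and *Eno1*. They are written 5′ to 3′ on the strand of the gene, and capitals mark ACGTG, or CACGT where ACGTG lies on the opposite strand, which overlap as CACGTG.
Bnip3 (chr7:138909507-138909756, minus strand): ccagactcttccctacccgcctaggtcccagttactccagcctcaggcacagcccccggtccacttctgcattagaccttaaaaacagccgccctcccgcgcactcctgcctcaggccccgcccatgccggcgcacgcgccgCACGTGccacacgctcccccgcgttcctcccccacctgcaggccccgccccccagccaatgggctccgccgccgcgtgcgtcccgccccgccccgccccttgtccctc
P4ha1 (chr10:59323046-59323295, plus strand): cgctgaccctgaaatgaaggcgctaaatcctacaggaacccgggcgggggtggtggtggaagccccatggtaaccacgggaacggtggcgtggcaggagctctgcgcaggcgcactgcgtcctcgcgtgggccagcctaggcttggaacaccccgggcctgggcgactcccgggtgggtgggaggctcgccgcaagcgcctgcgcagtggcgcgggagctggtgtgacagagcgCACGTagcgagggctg
Slc16a3 (chr11:120948817-120949066, plus strand): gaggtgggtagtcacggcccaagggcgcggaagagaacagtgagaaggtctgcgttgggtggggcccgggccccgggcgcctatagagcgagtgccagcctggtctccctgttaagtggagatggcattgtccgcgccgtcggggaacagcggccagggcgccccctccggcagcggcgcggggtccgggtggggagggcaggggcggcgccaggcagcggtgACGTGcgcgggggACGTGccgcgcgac
Adm (chr7:110627407-110627656, plus strand): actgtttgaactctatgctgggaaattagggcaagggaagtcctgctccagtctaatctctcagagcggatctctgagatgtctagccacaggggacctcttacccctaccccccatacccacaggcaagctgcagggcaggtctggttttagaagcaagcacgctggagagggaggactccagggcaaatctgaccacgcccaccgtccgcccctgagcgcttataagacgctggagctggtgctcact
Ldha (chr7:46845554-46845803, plus strand): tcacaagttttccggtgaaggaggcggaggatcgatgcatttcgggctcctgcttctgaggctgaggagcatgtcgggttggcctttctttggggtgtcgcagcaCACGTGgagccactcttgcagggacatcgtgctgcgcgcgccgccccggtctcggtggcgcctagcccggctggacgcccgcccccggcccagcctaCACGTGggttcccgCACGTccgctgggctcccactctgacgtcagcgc
Pgk1 (chrX:106186850-106187099, plus strand): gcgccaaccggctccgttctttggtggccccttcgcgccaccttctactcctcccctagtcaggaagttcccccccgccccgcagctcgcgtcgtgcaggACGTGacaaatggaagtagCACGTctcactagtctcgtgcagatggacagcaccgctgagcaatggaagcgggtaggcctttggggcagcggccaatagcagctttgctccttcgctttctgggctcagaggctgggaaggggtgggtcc
Ldhb (chr6:142507958-142508207, minus strand): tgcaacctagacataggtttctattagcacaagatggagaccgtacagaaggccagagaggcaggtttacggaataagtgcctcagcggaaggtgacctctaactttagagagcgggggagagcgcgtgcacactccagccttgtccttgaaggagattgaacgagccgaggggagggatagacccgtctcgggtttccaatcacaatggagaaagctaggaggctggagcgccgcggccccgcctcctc
*Bnip3* and *Ldha* carry the palindrome CACGTG, which is also an E-box that MYC and other factors bind, whereas *Slc16a3* and *Pgk1* carry ACGTG at separate places and *P4ha1* carries it once, on the opposite strand. GCGTG is not marked.

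Other genes of glucose metabolism, from lists outside the 39, are given by their counts, to be read beside the 18.3% of all genes higher and 14.1% lower at W6 and the 17.9% higher and 25.1% lower at W12. Several of these counts lie near those shares. Of 12 tested isoforms and side enzymes of glycolysis, 2 rose and 4 fell at W6 against D0, and 3 rose and 2 fell at W12. There the lactate transporter *Slc16a7* was lower (-2.06, SE 0.30, limma adjusted p = 0.000989) and the D-lactate dehydrogenase *Ldhd* higher (0.96, SE 0.19, limma adjusted p = 0.00453). Of 7 pentose phosphate genes, 3 rose at W6 and 1 at W12, *G6pdx*, the committing enzyme, with 39.2 and 27.7 TPM at D0 and 84.2 and 92.2 at W12. Of 8 glycogen genes, 1 rose and 5 fell at W6, and 2 rose and 4 fell at W12, where the phosphorylase *Pygl* had 2.53 and 2.16 TPM against 15.4 and 14.9 at D0. Of 12 genes of pyruvate entry to mitochondria, 1 rose and 1 fell at W6, and 0 rose and 1 fell at W12, the kinase *Pdk2*, from 8.05 and 14.5 TPM at D0 to 1.57 and 2.25. Of 4 gluconeogenic genes, the fructose bisphosphatases *Fbp1* and *Fbp2* rose at both W6 and W12.

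Of 16 tested hypoxia-response genes outside the 39, 1 rose and 6 fell at W6 against D0, beside 18.3% of all genes higher and 14.1% lower. At W12 against D0, 6 rose and 3 fell, beside 17.9% and 25.1%, and from W6 to W12, 9 rose and 1 fell, beside 6.66% and 13.5%. Their median in that step was 0.86 on the log2 scale against -0.16 over all genes. *Angptl4*, a lipase inhibitor, had 18.7 and 11.2 TPM at W6 and 48.5 and 54.9 at W12, and the hormone gene *Stc1* had 0.654 and 0.997 at W6 and 3.94 and 7.62 at W12. *Kdm4b*, a histone demethylase, went the other way, with 23.2 and 38.6 TPM at D0 and 6.28 and 7.31 at W12. Of 4 tested regulators of HIF, *Vhl*, whose product targets hydroxylated HIF alpha for destruction, was higher at W12 than at D0, and 3 were lower, among them *Arnt*, the partner of HIF alpha, and *Hif1an*, beside 17.9% of all genes higher and 25.1% lower. Of 8 cell cycle genes, 2 rose at W6 and 1 at W12, near the 18.3% and 17.9% of all genes. Of the 18 immediate-early and stress genes, 13 fell and 0 rose at W1 against D0, beside 4.10% of all genes lower, and 11 fell and 1 rose (*Hspa1a*) at W2, beside 6.64% lower. At W6, 13 fell and 0 rose, and at W12, 14 fell and 1 rose (*Ier3*), beside 14.1% and 25.1% of all genes lower. Both genes that rose were named after their values were seen. The part of the list in the falls of the HIF targets was not tested.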

How the data were processed

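RNA-seq of sorted EpdSCs was read at D0, W1, W2, W6 and W12, with 2 replicates each. The authors trimmed reads with Skewer, quantified transcripts with Salmon (v1.4.0) against GRCm38 with the TRE-Sox9 sequence added, and summed them to genes with Tximport (v1.12.3), and the deposited values are TPM per gene. Depth is not kept in TPM. The placode table holds only columns of the authors' own comparison and was not used, and the 4 placode libraries were not analysed here.

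Genes averaging 1 TPM or more over the libraries were tested on log2(TPM + 1), a scale that understates changes of low genes, by limma (v3.58.1, R 4.3.3) with an intensity trend, 1 fit over all 10 libraries, and Benjamini-Hochberg adjustment over 13110 genes with a threshold of 0.05. Spread rests on 2 libraries per timepoint. Copies were genes aligned at 90% identity or more over at least 300 bases. Alternatives were another pseudocount (0.1), no filter, median-ratio and quantile scaling, a replicate block, a length and GC correction, subsets of libraries and each library left out. All 39 genes could be named. Values of every library were given for genes past the threshold with a log2 change of at least 1 at W6 or W12 against D0 and for the hexokinase, phosphofructokinase, lactate dehydrogenase, glucose transporter and HIF subunit families, and for others ranges or highest values. Of each further list genes were named from the 3 past the threshold with the largest change at W12 against D0. *Pdk1*, *Car9*, *Aldoc*, *Mxi1* and the markers of other cells were given in full after their values were seen. The members and lists were chosen with earlier results of these data known.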

Additional observations from a re-analysis of the deposited data

Results flagged for a closer look

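For 2 genes the change against D0 passed the threshold in opposite directions at different timepoints, and the difference between those timepoints, tested by limma with Benjamini-Hochberg adjustment, passed as well. That difference adds up the 2 opposite changes of the same fit. Its passing was therefore largely set by how the genes were picked and adds no support. *Pdk1* was higher than at D0 at W2 (0.59, adjusted p = 0.0247), lower at W6 (-0.45, adjusted p = 0.0394) and higher at W12 (0.73, adjusted p = 0.00400) on the log2 scale. Its change from W2 to W6 was -1.04 (SE 0.14, adjusted p = 0.00409) and from W6 to W12 1.18 (SE 0.14, adjusted p = 0.00116). The first of these was lost without W2 replicate 1 (-1.01, adjusted p = 0.0571). The W6 call of *Pdk1* against D0 was lost without D0 replicate 1 or 2, W1 replicate 1 or 2, W2 replicate 1 or 2, W6 replicate 1 or W12 replicate 1 or 2 (changes of -0.49 to -0.34, adjusted p = 0.0585 to 0.119), under the replicate block (adjusted p = 0.0643) and with length and GC content regressed out (-0.29, adjusted p = 0.121), and its W2 call without D0 replicate 2 or W2 replicate 1 or 2 (changes of 0.55 to 0.62, adjusted p = 0.0721 to 0.159). *Vegfa* was lower at W6 (-1.07, adjusted p = 0.00914) and higher at W12 (0.87, adjusted p = 0.0149) than at D0, with a change of 1.94 between them (SE 0.23, adjusted p = 0.00107). The W6 call of *Vegfa* was lost without D0 replicate 2 (-0.93, adjusted p = 0.0560) and the W12 call without D0 replicate 1 (0.74, adjusted p = 0.0600) or without W12 replicate 2 (0.64, adjusted p = 0.111). The W12 libraries came from grafts, so that the graft and the time of induction cannot be told apart in either gene.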

How the results depend on the processing

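None of the 89 calls of single genes of the list changed sign under an alternative, and genes of the further lists and the markers were not followed through the alternatives. Of these calls, those of *Adm*, *Bnip3* and *Ndrg1* at W6 and of *Ldha*, *Ldhb*, *Pgk1*, *Eno1*, *Pkm* and *Car12* at W12 against D0 passed under each. With all genes with a TPM above 0 tested, a larger family for the adjustment, 1 gene of the list passed at W1, 6 at W2 and 15 at W6 against D0 and 5 from W2 to W6. Of all genes, 606, 1011, 3102 and 940 passed in those comparisons. Fitted on the 4 libraries of a comparison only, 1 of the list passed at W1, 8 at W2, 7 at W6 and 1 between W1 and W2, beside 411, 1086, 1094 and 80 of all genes. With the length and GC correction, 1 of the list passed between W1 and W2, beside 31 of all genes. Leaving out 1 library gave counts of 1 to 8 at W1, 4 to 15 at W2, 15 to 27 at W6 and 17 to 22 at W12 against D0, 0 to 1 between W1 and W2, 1 to 16 from W2 to W6, 6 to 14 from W6 to W12 and 25 to 33 over all timepoints, the lone library of a timepoint being assumed to vary like the others. The lowest of these came without W1 replicate 1, W2 replicate 1, D0 replicate 2, W2 replicate 1, W12 replicate 1 and W12 replicate 2 for W1, W2, W6, W6 against W2, W12 against W6 and all timepoints.

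Replicate numbers name different mice, and same-numbered libraries did not deviate together (correlations of -0.129 to 0.182 over the comparisons). With the replicate number as a block, 5, 12, 24 and 18 genes passed at W1, W2, W6 and W12 against D0, 0 between W1 and W2, 9 from W2 to W6, 12 from W6 to W12 and 29 over all timepoints. Of all genes, 1057, 1709, 3761, 5259, 6, 1396, 2163 and 6843 passed in the same order. With the numbers crossed, an alternative chosen after seeing the data, 6 of the list passed at W1, 25 at W6 and 13 from W6 to W12, beside 1041, 4256 and 2236 of all genes. The length and GC correction, the fit of ungrafted libraries only and the added copies were also chosen after seeing the data. The number of all genes called also moved between settings, so a lower count of the list can go with fewer calls over all genes. Unknown depth and 2 libraries a timepoint limit what could be detected.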

Other observations

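A few genes of glucose handling outside the list, chosen after their values were seen, had timepoints that stood apart. *Slc2a4*, the insulin-responsive glucose transporter, had 0.964 and 2.44 TPM at D0, 4.998 and 4.86 at W1, 4.67 and 5.42 at W2, 10.8 and 11.01 at W6 and 2.19 and 2.14 at W12. Its level at W6 was above that of all other libraries (change against D0 2.19, SE 0.26, limma adjusted p = 0.000682), and it fell again at W12. *Pcx*, pyruvate carboxylase, had 11.5 and 11.8 TPM at D0, 24.7 and 26.4 at W1, 40.6 and 44.1 at W2, 38.1 and 19.6 at W6 and 5.88 and 8.05 at W12, with all 6 libraries of W1 to W6 above D0 and both W12 libraries below it. *Gapdhs*, the spermatogenic isoform of *Gapdh*, had 2.90 and 2.88 TPM at D0, 0.210 and 0.557 at W1, 0.702 and 1.22 at W2, 0.233 and 0.448 at W6 and 4.25 and 3.75 at W12, lower from W1 to W6 than at D0 or W12.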
